A study of Homo sapiens with 64 samples.

Results

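The 9 genes described here are complement components and regulators, CLU, CD46, CD55, CD59, C3, CFB, CFI, C1R and SERPING1, chosen by symbol as the rows of the count tables whose Ensembl identifier carries 1 of these 9 names, out of 54127 genes in all. RNA sequencing was measured in 64 samples of human colorectal cancer cell lines. Of these, 48 came from HT55, SW948, RKO, SW48, DLD1 and HCT15, each labelled with CFSE, a dye diluted at every cell division, cultured as non-adherent spheroids with bFGF and EGF, and sorted by flow cytometry on day 6 into label-retaining cells (LRCs, CFSE high) and the cycling bulk (non-LRCs), with 4 samples of each. The other 16 were DLD1 spheroid cells not divided into LRCs and non-LRCs, labelled with CFSE or left without it (DMSO), on day 1 and on a later day that the sample labels call day 5 and the design text calls day 6, with 4 samples per group. No gene was targeted and no drug was given. DLD1 and HCT15 are known to derive from the same tumor, so the lines are not all independent, and the cultures held tumor cells without host cells. The study's methods call the replicates biological, whereas the labels number them without saying whether they were separate cultures, so p-values measure the spread between these samples.

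Complement is a cascade of secreted proteases and binding proteins that deposit fragments of C3 on a cell surface and can end in a pore, the membrane attack complex. The classical route starts with C1, in which C1R activates its partner protease and SERPING1 is the inhibitor, and the alternative route builds its C3 convertase with CFB, while the protease CFI cuts active C3 fragments. Human cells, including those of the colonic epithelium and its tumors, carry membrane regulators that stop the cascade on their own surface: CD46 is a cofactor for CFI, CD55 speeds the decay of C3 convertases, and CD59 blocks the assembly of the pore. CLU (clusterin) is a secreted chaperone that also binds the forming terminal complex. RNA counts do not show the proteins or any complement activity, and in these bulk samples more cells that expressed a gene and more RNA per cell cannot be told apart.

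The libraries held 12237225 to 20913455 reads assigned to genes (median 15063858). Some libraries stood apart from their groups. The library labelled SW948 LRC replicate 4 lay with the non-LRCs for CLU and CD55, the replicate 2 pairs of HT55 and of SW48 lay apart from the other pairs of their lines, and the library labelled DMSO day 1 replicate 4 correlated better with the day 5 controls (mean r = 0.981) than with the other day 1 controls (mean r = 0.948), over all genes in log2 CPM, the log2 of CPM (counts scaled to a common library size) with a prior count of 2. Results of the members that rest on these libraries are given with and without them below. The summed level of 8 colorectal epithelial markers was at least 2448 CPM in every sorted sample of 5 lines and 219 to 332 CPM in RKO, where CDH1 stood at 0.930 CPM and VIL1 at 0.285 CPM in non-LRCs but KRT8 at 75.4 CPM and KRT18 at 124 CPM. Single markers were also near 0 elsewhere, KRT20 at 0.326 CPM in SW48 and CEACAM5 at 0.504 CPM in HCT15. Of 5 leukocyte markers, CD3E was at 0 CPM in both populations of all 6 lines and MS4A1 at no more than 0.0179 CPM, while PTPRC stood at 15.6 CPM in the non-LRCs of SW48 and CD14 at 7.31 CPM in those of HCT15. CD68 was higher in LRCs in the mean of each line, for example at 20.6 against 5.93 CPM in HCT15, and its part in the results was not tested. The summed level of 4 fibroblast markers was at most 13.6 CPM, of 2 endothelial markers at most 3.59 CPM and of 3 hepatocyte markers at most 0.965 CPM in any of the 64 samples, and the summed level of 5 leukocyte markers reached 1616 CPM in RKO, where CD68 made up nearly all of it.

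The members differed strongly in abundance. Over the 48 sorted samples, 430317 reads were counted for CD46, 383557 for CD55, 153586 for CD59 and 109882 for CLU, against 2487 for C1R, 389 for C3, 286 for CFB, 47 for CFI and 31 for SERPING1. The membrane regulators and CLU were therefore measured well in every line, whereas C3, CFB, CFI and SERPING1 had few reads in most of them.

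Across the 6 lines, CLU, CD55 and CD59 were higher in LRCs than in non-LRCs, and no member was lower past the threshold. CLU showed a log2 fold change of 0.85 ± 0.11 (SE), CD55 one of 0.44 ± 0.08 and CD59 one of 0.22 ± 0.04. Of the 9 members, 7 had enough reads to be tested in this fit (at least 10 reads in at least 4 samples). C3 reached that minimum only through its LRC samples, which favors a difference toward LRCs. It is described below and left out of the counts here. Of the other 6, 3 were called higher in LRCs by edgeR's quasi-likelihood test at a Benjamini-Hochberg adjusted p under 0.05, beside 12.2% of the 16603 genes tested that were called higher and 22.9% that were called in either direction. The median log2 fold change of these 6 members was 0.25, and that of all genes tested was 0.01. CFI and SERPING1 did not reach the count minimum and were not tested across the lines. The sort was on the dye itself, so among sorted samples dye content and label retention cannot be told apart.

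**Figure D1:**
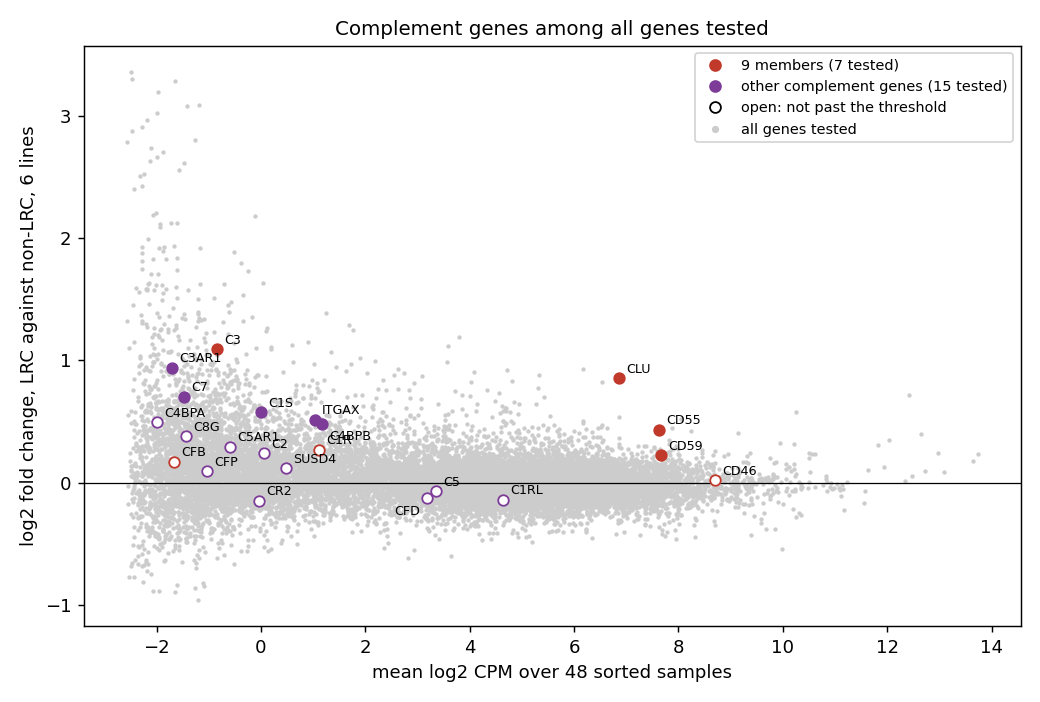
Log2 fold change of LRCs against non-LRCs across the 6 lines (vertical axis) by mean log2 CPM over the 48 sorted samples (horizontal axis) for all genes tested (gray), the 7 tested members (red) and 15 tested other complement genes (purple), with open symbols for genes not past the threshold. CLU lies at 0.85, CD46 at 0.02 and C3 at 1.09, the last at a far lower level than CLU and tested only through its LRC samples.

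The surface regulators are described first. CD46 (ENSG00000117335) lies on chromosome 1 at 207925382-207968858 on the plus strand of GRCh37, close to CD55 (ENSG00000196352), which lies at 207494864-207560149 on the plus strand. CD59 (ENSG00000085063) lies on chromosome 11 at 33724556-33758025 on the minus strand. All 3 are protein-coding genes, and counts cover their exons. Because CD55 and CD59 changed while CD46 did not pass the threshold, the 250 bases before a start site of each, from RefSeq on GRCh38.p14, are shown for comparison, with motif letters in capitals. The window of CD46 is chr1:207751788-207752037 on the plus strand, that of CD55 is chr1:207321428-207321677 on the plus strand and that of CD59 is chr11:33736480-33736729 on the minus strand.
CD46: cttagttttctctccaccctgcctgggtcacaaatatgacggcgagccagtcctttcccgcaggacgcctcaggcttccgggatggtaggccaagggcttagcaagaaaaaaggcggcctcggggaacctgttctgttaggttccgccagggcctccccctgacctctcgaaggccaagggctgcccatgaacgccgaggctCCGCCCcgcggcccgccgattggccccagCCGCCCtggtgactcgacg
CD55: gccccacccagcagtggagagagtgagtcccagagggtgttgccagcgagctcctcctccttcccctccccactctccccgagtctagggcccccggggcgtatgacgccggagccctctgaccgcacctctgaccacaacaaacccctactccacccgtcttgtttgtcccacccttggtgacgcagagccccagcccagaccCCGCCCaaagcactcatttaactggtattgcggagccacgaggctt
CD59: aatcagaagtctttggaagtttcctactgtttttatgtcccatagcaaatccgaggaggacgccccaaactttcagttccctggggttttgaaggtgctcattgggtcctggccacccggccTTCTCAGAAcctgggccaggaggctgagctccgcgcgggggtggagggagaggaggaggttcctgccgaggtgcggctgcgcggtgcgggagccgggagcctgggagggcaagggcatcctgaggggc
The search covered AP-1 (TGACTCA), CRE (TGACGTCA), SP1 (GGGCGG), GAS (TTCNNNGAA), E-box (CACGTG), TCF (ATCAAAG) and hypoxia (ACGTG) letters on both strands, of which the hypoxia letters lie inside those of the E-box. The CD46 window held 2 SP1 matches and the CD55 window 1, letters that 42.6% of 35093 windows of the same length held. The CD59 window held 1 GAS match, 128 bases before the start, and 6.57% of all windows held that motif. None of the other 5 motifs was found in these 3 windows, which says only that those letters are not there. Windows at other listed start sites held other letters: 1 of CD59 held 2 SP1 matches and 1 GAS match, 1 held 1 hypoxia match and 1 held 1 AP-1 match, and a further one of CD46 held 3 SP1 matches. Which letters a gene has thus depends on the window chosen. Windows were listed for 6 of the 9 members.

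CD59, the inhibitor of pore assembly, was higher in LRCs in every same-numbered pair, 24 of 24, with a small difference. The same-numbered samples of SW948 and RKO did not deviate together, so pairs there are matched by label alone. How many of all genes had such pair counts was not counted, here or for the other members. In RKO the LRC samples measured 379, 342, 323 and 363 CPM, and the non-LRC samples 265, 277, 279 and 304 CPM. In DLD1 they measured 210, 196, 206 and 208 CPM against 180, 172, 177 and 179 CPM. In these lines every LRC sample lay above every non-LRC sample. In HCT15 the LRC samples measured 258, 281, 254 and 266 CPM and the non-LRC samples 227, 228, 236 and 248 CPM. In HT55 they measured 157, 164, 162 and 161 CPM against 135, 154, 135 and 129 CPM. These groups did not overlap either, although the highest non-LRC sample of HT55, replicate 2, came close to the LRC samples. In SW948 the LRC samples measured 296, 245, 238 and 222 CPM and the non-LRC samples 218, 193, 237 and 216 CPM. In SW48 they measured 131, 174, 154 and 146 CPM against 115, 174, 121 and 114 CPM. In both of these lines the groups overlapped, in SW48 through the non-LRC sample of replicate 2. Across the lines the log2 fold change was 0.22 ± 0.04 (SE, edgeR adjusted p = 1.90e-05). By line it ran from 0.18 in HCT15 to 0.30 in RKO, and a difference of the effect between lines was not detected (adjusted p = 0.958).

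CD55, the decay-accelerating factor, was higher in LRCs in 23 of 24 same-numbered pairs, with its largest difference in the line that expressed it most. In SW48 the LRC samples measured 3591, 1783, 3877 and 3567 CPM and the non-LRC samples 2388, 929, 2377 and 1866 CPM. Replicate 2 was the lowest sample of both groups in SW48, and without its pair the lowest LRC sample lay far above the highest non-LRC sample. In HT55 the LRC samples measured 606, 456, 625 and 608 CPM against 445, 423, 477 and 431 CPM. In HCT15 they measured 143, 146, 138 and 136 CPM against 112, 104, 103 and 109 CPM. Only the groups of HCT15 stood fully apart among the 6 lines, and in HT55 the LRC sample of replicate 2 alone fell within the non-LRC range. In DLD1 the LRC samples measured 186, 195, 137 and 149 CPM against 122, 146, 114 and 113 CPM. In SW948 they measured 81.2, 72.0, 83.2 and 47.6 CPM against 48.1, 44.7, 58.5 and 47.2 CPM, and in RKO 54.8, 53.3, 44.1 and 63.7 CPM against 47.0, 49.6, 47.4 and 54.1 CPM. In SW948 the overlap came from LRC replicate 4, and in RKO the groups were mixed. Across the lines the log2 fold change was 0.44 ± 0.08 (SE, edgeR adjusted p = 5.44e-05).

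CD46, the cofactor for cleavage of C3 fragments, had the most reads of the 9 members and did not differ past the threshold between LRCs and non-LRCs, with a log2 fold change across the lines of 0.02 ± 0.04 (SE, edgeR adjusted p = 0.753) and 13 of 24 pairs higher in LRCs. In HT55 the LRC samples measured 1760, 1567, 2093 and 1648 CPM and the non-LRC samples 2111, 1444, 1853 and 1756 CPM. In DLD1 they measured 617, 648, 610 and 688 CPM against 595, 672, 653 and 612 CPM. The groups overlapped in both lines. HCT15 was the only line in which all 4 pairs were lower in LRCs, at 420, 415, 379 and 461 CPM against 449, 498, 442 and 507 CPM, and there the log2 difference of -0.17 ± 0.09 (SE) did not pass the threshold (adjusted p = 0.35). In the other lines the ratio of the LRC mean to the non-LRC mean was between 1.04 in RKO and 1.11 in SW948.

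**Figure D2:**
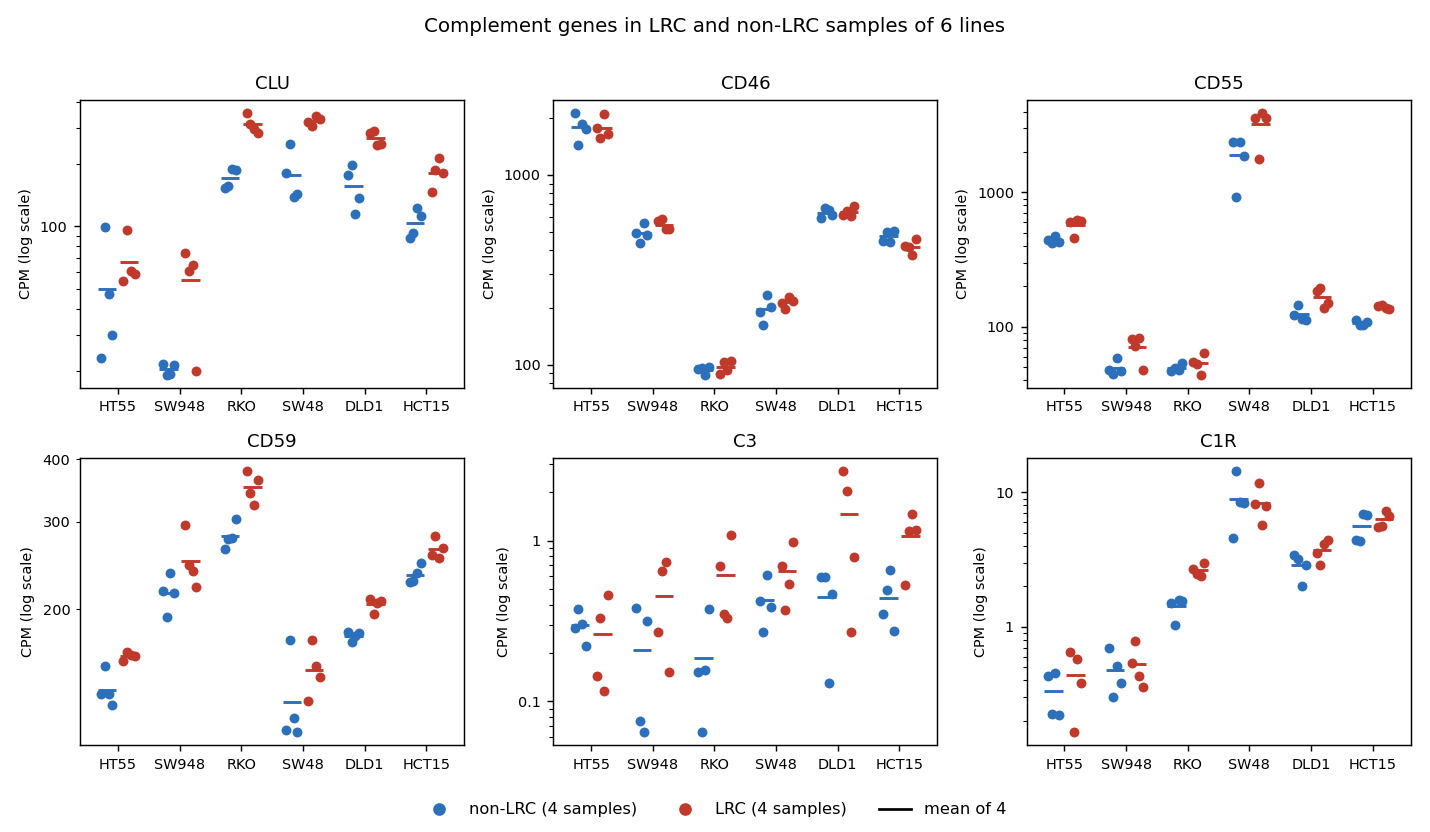
CPM on a log scale (vertical axes) of 6 members in the non-LRC (blue) and LRC (red) samples of the 6 lines, with each point 1 sample and bars at the mean of 4. CLU, CD55 and CD59 sit higher in LRCs in most lines, 1 LRC sample of SW948 lies among the non-LRCs for CLU, and CD46 differs between lines far more than between populations.

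CLU (ENSG00000120885), the secreted chaperone, lies on chromosome 8 at 27454434-27472217 on the minus strand of GRCh37. It was higher in LRCs in 22 of 24 same-numbered pairs and in the mean of each of the 6 lines. In RKO the LRC samples measured 352, 314, 295 and 284 CPM and the non-LRC samples 152, 156, 189 and 187 CPM. In SW48 they measured 319, 304, 342 and 331 CPM against 180, 250, 138 and 143 CPM. In both lines every LRC sample was higher than every non-LRC sample. In DLD1 the LRC samples measured 282, 289, 248 and 249 CPM and the non-LRC samples 176, 198, 115 and 138 CPM. In HCT15 they measured 147, 187, 213 and 180 CPM against 88.2, 92.4, 123 and 112 CPM. These groups did not overlap either, and the ratio of means in the 4 lines was between 1.70 in DLD1 and 1.82 in SW48. In SW948 the LRC samples measured 74.3, 60.7, 65.0 and 19.96 CPM against 21.5, 19.2, 19.4 and 21.4 CPM. Here 3 LRC samples lay far above the non-LRCs, and replicate 4 lay among them. In HT55 the LRC samples measured 54.7, 95.7, 61.01 and 58.95 CPM against 23.2, 98.9, 47.1 and 29.8 CPM, and both samples of replicate 2 were the highest of their groups. Across the lines the log2 fold change was 0.85 ± 0.11 (SE, edgeR adjusted p = 4.22e-07).

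For each line alone, the count of called members has to be read beside the share of all genes called there. In RKO, CLU (log2 fold change 0.84 ± 0.09), CD59 (0.30 ± 0.07) and C1R (0.87 ± 0.22) were called among 5 tested members, beside 41.5% of all genes. In DLD1, CLU (0.78 ± 0.14), CD55 (0.44 ± 0.12) and CD59 (0.22 ± 0.04) were called among 5, beside 14.6% of all genes. Without DLD1 replicate 1 or without replicate 4, only CLU remained called, and without replicate 3 CD59 was not called (edgeR adjusted p = 0.0719). In HCT15, CLU (0.82 ± 0.13) and CD55 (0.41 ± 0.07) were called among 6, beside 0.977% of all genes, and leaving out any 1 of the 4 replicates ended both calls (the adjusted p of CLU ran from 0.0862 to 0.205 and that of CD55 from 0.0871 to 0.264), where at most 27 genes in all were called. All calls were toward LRCs.

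In HT55, SW948 and SW48 no member was called in the plain fit, in which 0% of all genes were called in HT55, 0% in SW948 and 0.796% in SW48. At an unadjusted p under 0.05, 2 of 4 tested members passed in HT55, 3 of 5 in SW948 and 2 of 5 in SW48. Of all genes tested, 1005 of 13391 passed in HT55, 2350 of 13674 in SW948 and 1728 of 13196 in SW48. DESeq2 called CLU and CD55 in SW948, CLU in SW48 and no member in HT55, where it called 37 genes in all. Its share of all genes in SW948 and SW48 is not given here, so these calls describe the members alone. Without SW948 LRC replicate 4, a choice made after seeing the data, 14.5% of all genes were called, among them CLU (log2 fold change 1.72 ± 0.09, adjusted p = 6.63e-08), CD55 (0.68 ± 0.10, adjusted p = 4.85e-04) and CD59 (0.28 ± 0.09, adjusted p = 0.0472). Without replicate 2 of HT55, CLU (0.82 ± 0.18, adjusted p = 0.0136) and CD55 (0.45 ± 0.08, adjusted p = 0.00499) were called, beside 6.13% of all genes. Without replicate 2 of SW48, CLU (1.10 ± 0.10, adjusted p = 5.53e-04) and CD55 (0.73 ± 0.09, adjusted p = 0.00251) were called, beside 3.84% of all genes.

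In HT55, SW48, DLD1 and HCT15 the same-numbered samples deviated together, and among these 4 lines the replicate number as a block changed the calls in SW48 and HCT15. In SW48 the block gave CLU at 0.90 ± 0.14 (edgeR adjusted p = 0.00407) and CD55 at 0.79 ± 0.07 (adjusted p = 2.59e-04) as higher in LRCs, beside 9.69% of all genes. In HCT15 the block added CD59 at 0.18 ± 0.06 (adjusted p = 0.0459) and C3 at 1.25 ± 0.33 (adjusted p = 0.0123) to CLU and CD55, beside 21.3% of all genes, where C3 again reached the count minimum only through the LRC samples.

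**Figure D3:**
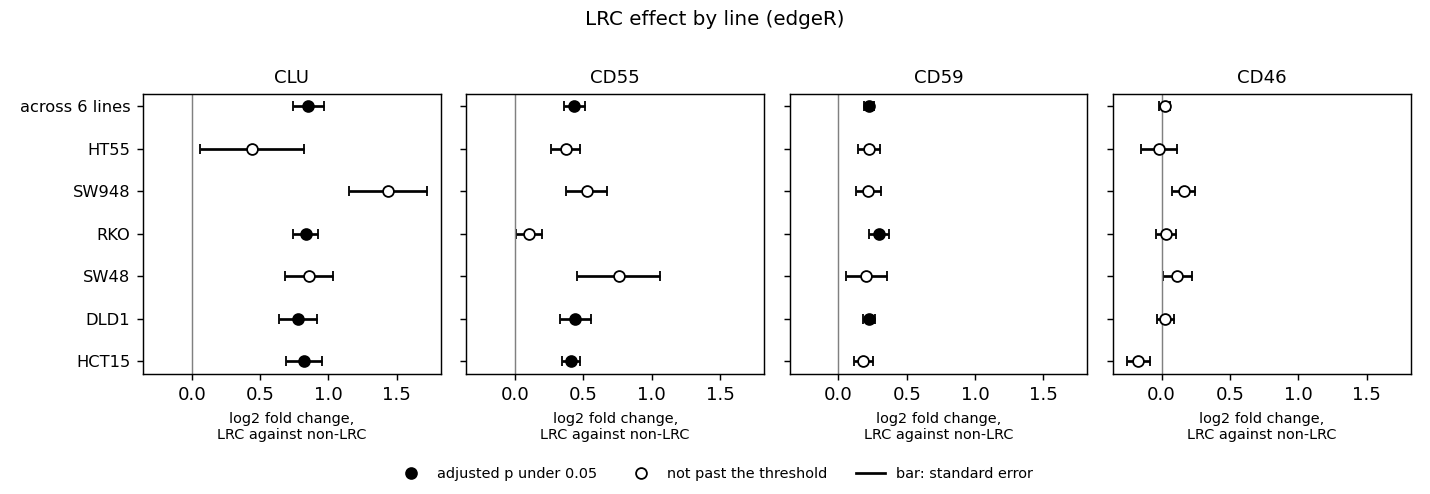
Log2 fold change of LRCs against non-LRCs (horizontal axes) for CLU, CD55, CD59 and CD46 across the 6 lines and in each line, with bars for the standard error and filled symbols for an adjusted p under 0.05. CLU runs from 0.44 in HT55 to 1.44 in SW948 and CD59 from 0.18 to 0.30, while CD46 lies on both sides of 0.

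Groups without overlap between LRC and non-LRC samples were counted among all tested genes for comparison. In RKO, CLU, CD59 and C1R did not overlap, beside 36.9% of all genes, and in DLD1, CLU and CD59 did not, beside 21% of all genes. In HCT15, CLU, CD55 and CD59 did not overlap, beside 10.4% of all genes. In SW48 this held for CLU, beside 8.26% of all genes, in HT55 for CD59, beside 3.26%, and in SW948 for none of the tested members, beside 4.86%.

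Whether the effect of label retention differed between the 6 lines was tested for each gene in 1 fit over all 48 samples. None of the 7 tested members passed (edgeR adjusted p from 0.275 for CFB to 0.958 for CD59, 0 of 7 at an unadjusted p under 0.05, and none with DESeq2), beside 14.3% of all genes. With the replicate number as a block, CD55 passed (adjusted p = 0.00299), beside 33.6% of all genes. Mean log2 CPM of 6 proliferation genes differed in LRCs by -0.54 in RKO, -0.47 in SW48 and -0.55 in DLD1, by 0.22 in HCT15, by -0.03 in SW948 and by 0.0029 in HT55. CLU was higher in LRCs both where these genes were lower and in HCT15, where all 6 were higher, and their part in the result was not tested.

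C3 (ENSG00000125730, chromosome 19 at 6677715-6730573 on the minus strand of GRCh37), the protein on which all routes converge, had few reads, with 269 in all 24 LRC samples and 120 in all 24 non-LRC samples. Its counts were 38, 31, 4 and 10 reads in the LRC samples of DLD1 and 9, 9, 2 and 6 in the non-LRC samples. In HCT15 they were 11, 17, 24 and 18 against 6, 8, 11 and 4 reads, and in RKO 8, 6, 4 and 20 against 2, 1, 2 and 6 reads. In these 3 lines all 4 pairs were higher in LRCs although the groups overlapped. The sums were 35 against 25 reads in SW48, 29 against 13 in SW948 and 14 against 16 in HT55, with 6 of 12 pairs higher in LRCs. Of the 24 LRC samples 12 reached 10 reads and of the 24 non-LRC samples 2 did, so C3 was tested only through the population in which it was high, and its fitted value is a description. That log2 fold change across the lines was 1.09 ± 0.24 (SE, edgeR adjusted p = 6.1e-04), it was 1.09 ± 0.23 (adjusted p = 3.94e-04) with no count minimum, and 18 of 24 pairs were higher in LRCs. In a line alone C3 reached the count minimum only in HCT15, in 4 LRC samples and 1 non-LRC sample, and there the log2 fold change was 1.25 ± 0.39 and did not pass the threshold (adjusted p = 0.153).

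C1R (ENSG00000159403, chromosome 12 at 7187513-7245203 on the minus strand of GRCh37), the initiating protease of the classical route, was higher in the LRCs of RKO. There the LRC samples measured 2.70, 2.45, 2.39 and 2.98 CPM and the non-LRC samples 1.52, 1.04, 1.58 and 1.56 CPM, without overlap. In SW48, which had the highest level, the LRC samples measured 8.17, 11.7, 5.76 and 7.94 CPM against 4.58, 14.5, 8.43 and 8.39 CPM. The SW48 groups were mixed, with both extremes among the non-LRCs. Across the lines the log2 fold change was 0.27 ± 0.12 and did not pass the threshold (edgeR adjusted p = 0.0999, 15 of 24 pairs higher), and with the replicate number as a block it was 0.28 ± 0.10 and did (adjusted p = 0.0471). In the annotation, 672 of its 4696 exon bases are shared with C1RL.

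CFB (ENSG00000243649, chromosome 6 at 31913427-31919863 on the plus strand of GRCh37), the protease of the alternative convertase, was measured mainly in SW948. There the LRC samples had 22, 17, 32 and 42 reads and the non-LRC samples 20, 17, 23 and 33 reads, which overlapped. The 8 samples of the other lines held 43 reads in HCT15, 27 in HT55, 4 in DLD1, 3 in RKO and 3 in SW48. Across the lines the log2 fold change of CFB was 0.17 ± 0.24 (SE, edgeR adjusted p = 0.655). Of its 5312 exon bases, 2273 are shared with C2 and another overlapping gene, so its counts are uncertain.

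CFI (ENSG00000205403, chromosome 4 at 110652164-110723306 on the minus strand of GRCh37), the protease that cuts active C3 fragments, had 33 of its 47 reads in HCT15. There the LRC samples had 12, 5, 6 and 2 reads and the non-LRC samples 1, 0, 1 and 6 reads, and in each of the other 5 lines at most 5 reads were counted over 8 samples. SERPING1 (ENSG00000149131, chromosome 11 at 57364860-57386644 on the plus strand of GRCh37), the C1 inhibitor, had 18 of its 31 reads in RKO, with 4, 8, 1 and 2 reads in the LRC samples and 1, 1, 1 and 0 in the non-LRC samples. All 4 of these pairs were higher in LRCs, at very few reads. In SW48 it had 0 reads in 8 samples, which allows a level of up to 0.0269 CPM (3 reads over the 8 samples, counting error only). In SW948 all 7 reads of SERPING1 were in LRC samples, and the 0 reads in the 4 non-LRC samples allow up to 0.0497 CPM. Neither gene reached the count minimum in the sorted samples, and neither was tested.

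**Figure D4:**
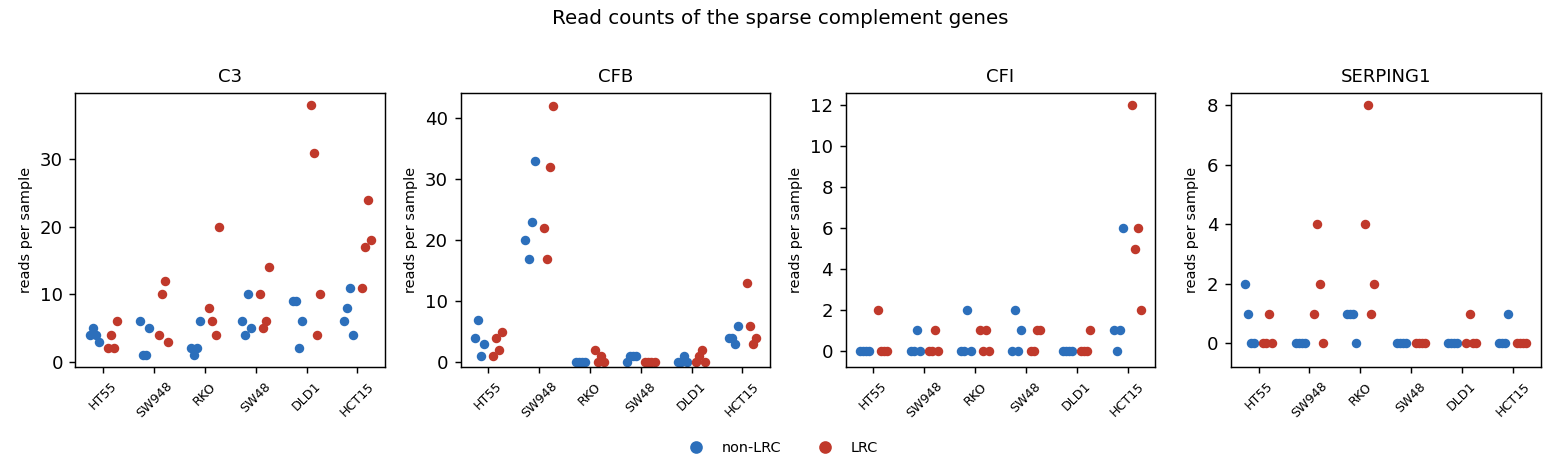
Reads per sample (vertical axes) of C3, CFB, CFI and SERPING1 in non-LRC (blue) and LRC (red) samples of the 6 lines, with each point 1 sample. CFB is concentrated in SW948 with up to 42 reads, CFI in HCT15 with up to 12 and SERPING1 in RKO with up to 8, while C3 is spread over the lines with up to 38 reads in DLD1.

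The levels of CLU, CD46, CD55 and C1R varied far more between lines than between LRCs and non-LRCs. In the non-LRCs CLU, CD46, CD55, CD59 and C1R differed between the 6 lines by edgeR's quasi-likelihood test, but so did 98.3% of all genes. Over all pairs of lines 71.2% of the comparisons of a gene passed. CFB reached the count minimum only through its SW948 samples, which favors a difference between lines, and its levels are a description. For CD46 the mean was 1791 ± 276 CPM (SD, n = 4) in HT55, 633 ± 35.8 in DLD1, 492 ± 48.2 in SW948 and 474 ± 33.1 in HCT15, and it fell to 196 ± 28.7 in SW48 and 94.0 ± 3.66 in RKO. Only the neighbors SW948 and HCT15 did not differ past the threshold, and 14 of 15 pairs did. For CD55 the mean was 1890 ± 686 CPM in SW48, 444 ± 23.7 in HT55, 124 ± 15.1 in DLD1, 107 ± 4.16 in HCT15, 49.6 ± 6.11 in SW948 and 49.5 ± 3.24 in RKO. The neighbors DLD1 and HCT15, and SW948 and RKO, did not differ past the threshold, and 13 of 15 pairs did. For CD59 the spread was narrower, from 281 ± 16.5 CPM in RKO through 235 ± 9.69 in HCT15, 216 ± 17.8 in SW948, 177 ± 3.83 in DLD1 and 138 ± 10.9 in HT55 to 131 ± 28.9 in SW48. The neighbors HCT15 and SW948, and HT55 and SW48, did not differ past the threshold.

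For CLU the mean in non-LRCs was 178 ± 51.8 CPM (SD, n = 4) in SW48, 171 ± 19.4 in RKO, 157 ± 37.5 in DLD1, 104 ± 16.2 in HCT15, 49.7 ± 34.3 in HT55 and 20.4 ± 1.25 in SW948. SW48, RKO and DLD1 did not differ from each other past the threshold, nor did DLD1 and HCT15 (edgeR adjusted p = 0.0537), and 11 of 15 pairs did. C1R was highest in SW48 at 8.96 ± 4.08 CPM and lowest in HT55 at 0.333 ± 0.127 CPM, with 14 of 15 pairs past the threshold. CFB was highest in SW948 at 1.53 ± 0.391 CPM and had 0 reads in the non-LRCs of RKO, which allows up to 0.0524 CPM. C3 was between 0.187 ± 0.132 CPM in RKO and 0.446 ± 0.218 CPM in DLD1, and its order among the lines was not tested. The order of the lines in LRCs was the same as in non-LRCs for CLU, CD46, CD59 and C1R, and for CD55 only SW948 and RKO changed places.

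Levels of different genes were compared per length of exon, as RPKM, which is CPM divided by exon length in kilobases. In the non-LRCs of SW48, CD55 stood at 184 ± 66.9 RPKM (SD, n = 4) against 12.6 ± 1.85 for CD46 and 12.4 ± 2.74 for CD59. In HT55 the order was reversed for CD46 and CD55, at 116 ± 17.8 and 43.3 ± 2.31 RPKM, with CD59 at 13.1 ± 1.03 RPKM. RKO had CD46 at 6.06 ± 0.236 and CD55 at 4.83 ± 0.316 RPKM, far below its CD59 level of 26.6 ± 1.56 RPKM. By this measure the lines differed in which surface regulator was the most abundant, CD55 in SW48, CD59 in RKO and CD46 in the other 4. RPKM between genes depends on the annotated exons, here 15505 bases for CD46, 10254 for CD55 and 10557 for CD59. Of the CD46 exon bases, 797 are shared with MIR29B2CHG. CLU stood between 3.24 ± 0.198 RPKM in SW948 and 28.3 ± 8.24 RPKM in SW48, and C3 at no more than 0.0385 RPKM in the mean of any line's non-LRCs.

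The DLD1 controls address what the dye and the time in culture do to these genes without a sort. They did not match the sorted DLD1 samples in all markers, and the cause was not tested. CD14 averaged 5.69 to 7.93 CPM in the control groups, 0.302 and 0.628 in sorted DLD1 and 6.36 and 7.31 in HCT15. For KRT20 these means were 0.499 to 2.10, 32.1 and 35.0, and 3.04 and 3.44 CPM. EPCAM was alike, at 655.6 to 948.5, 845 and 861, and 861 and 898 CPM. CLU was higher with CFSE than with DMSO, and CD46 and C1R were lower. On day 1, CLU measured 543, 613, 236 and 220 CPM in CFSE samples and 154, 169, 108 and 107 CPM in DMSO samples. On day 5 it measured 252, 246, 151 and 166 CPM against 92.8, 118, 120 and 118 CPM. CFSE samples lay above DMSO samples on both days, and replicates 1 and 2 of the CFSE samples lay above replicates 3 and 4. Over both days the log2 difference of CFSE against DMSO was 1.24 ± 0.21 for CLU (edgeR adjusted p = 0.00108), -0.56 ± 0.14 for CD46 (adjusted p = 0.00759) and -0.78 ± 0.20 for C1R (adjusted p = 0.00849). Without replicate 1 the call of CD46 was lost (adjusted p = 0.0541). Of 5 tested members 3 were called, beside 28.5% of all genes. Within replicates 1 and 2 alone the log2 difference of CLU between CFSE and DMSO was 1.84 on day 1 and 1.25 on day 5, and within replicates 3 and 4 it was 1.08 and 0.41. In the sorted DLD1 samples, all of which were labelled, CLU was 0.78 ± 0.14 higher in LRCs, the cells with more dye. Those samples are the ones that differed from the controls in the markers above. Whether the dye difference and the LRC difference of CLU are related was not tested.

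Without the library labelled DMSO day 1 replicate 4, CD55 and CD59 were also higher with CFSE when averaged over both days. The log2 difference was then 0.54 ± 0.15 for CD55 (edgeR adjusted p = 0.0189) and 0.49 ± 0.14 for CD59 (adjusted p = 0.0232), against 0.38 ± 0.19 (adjusted p = 0.14) and 0.36 ± 0.17 (adjusted p = 0.132) with it. All 5 tested members were then called, beside 24.3% of all genes. That library had CD55 at 83.2 CPM and CD59 at 225 CPM, whereas the other 3 DMSO day 1 samples had 39.1, 38.8 and 41.3 CPM of CD55 and 107, 119 and 129 CPM of CD59. Its levels lay within the range of the DMSO day 5 samples for both genes. The average covers unlike days: CD55 was lower with CFSE on day 5, and CD59 then stood at 258 ± 35.1 against 240.4 ± 25.1 CPM (SD, n = 4). Within replicates 3 and 4 the log2 difference of CD59 was -0.19 on day 1 and 0.05 on day 5.

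Between day 1 and day 5, CD46, CD59 and C1R were higher on day 5 and CLU was lower. CD46 measured 174, 165, 241 and 255 CPM in the CFSE samples of day 1 and 325, 382, 388 and 384 CPM on day 5. In DMSO samples it measured 274, 285, 329 and 492 CPM on day 1 and 650, 464, 457 and 392.3 CPM on day 5. The CFSE groups did not overlap, and the DMSO groups overlapped only through replicate 4 of day 1. The log2 difference of day 5 against day 1 was 0.65 ± 0.14 for CD46 (edgeR adjusted p = 0.00113), 0.67 ± 0.20 for C1R (adjusted p = 0.00968), 0.46 ± 0.17 for CD59 (adjusted p = 0.0388) and -0.65 ± 0.21 for CLU (adjusted p = 0.0154). Of 5 tested members 4 were called, beside 49.5% of all genes. Without the library labelled DMSO day 1 replicate 4, these 4 members stayed past the threshold, beside 55.8% of all genes. The calls of CLU, CD59 and C1R were each lost when some other replicate number was left out, and that of CLU was lost without replicate 1 (adjusted p = 0.0813) or 2 (adjusted p = 0.07).

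The effect of the dye on CD55 differed between the days. On day 1 the CFSE samples measured 169, 172, 86.5 and 85.8 CPM and the DMSO samples 39.1, 38.8, 41.3 and 83.2 CPM. On day 5 the CFSE samples measured 62.5, 70.4, 50.3 and 54.4 CPM and the DMSO samples 110, 75.6, 90.3 and 84.0 CPM. CD55 was thus higher with the dye on day 1 and lower on day 5. The groups did not overlap on either day, on day 1 by only 85.8 against 83.2 CPM. How many of all genes stood apart in the controls was not counted, here or for CLU and CD46 above. The mean log2 difference was 1.34 on day 1 and -0.60 on day 5, and the interaction of dye and day was -1.98 ± 0.38 (edgeR adjusted p = 0.0265), beside 0.999% of all genes called. Without the library labelled DMSO day 1 replicate 4 it was -2.28 ± 0.31 (adjusted p = 0.00175), beside 6.09% of all genes. Leaving out replicate number 1, 2 or 3 ended the call (adjusted p = 0.425, 0.333 and 0.178), with values from -1.95 to -1.66 and 0 genes called in all. C3 in the controls was highest in the CFSE day 1 samples, with 34, 26, 7 and 11 reads, and had at most 7 reads in each of the other 12 samples.

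**Figure D5:**
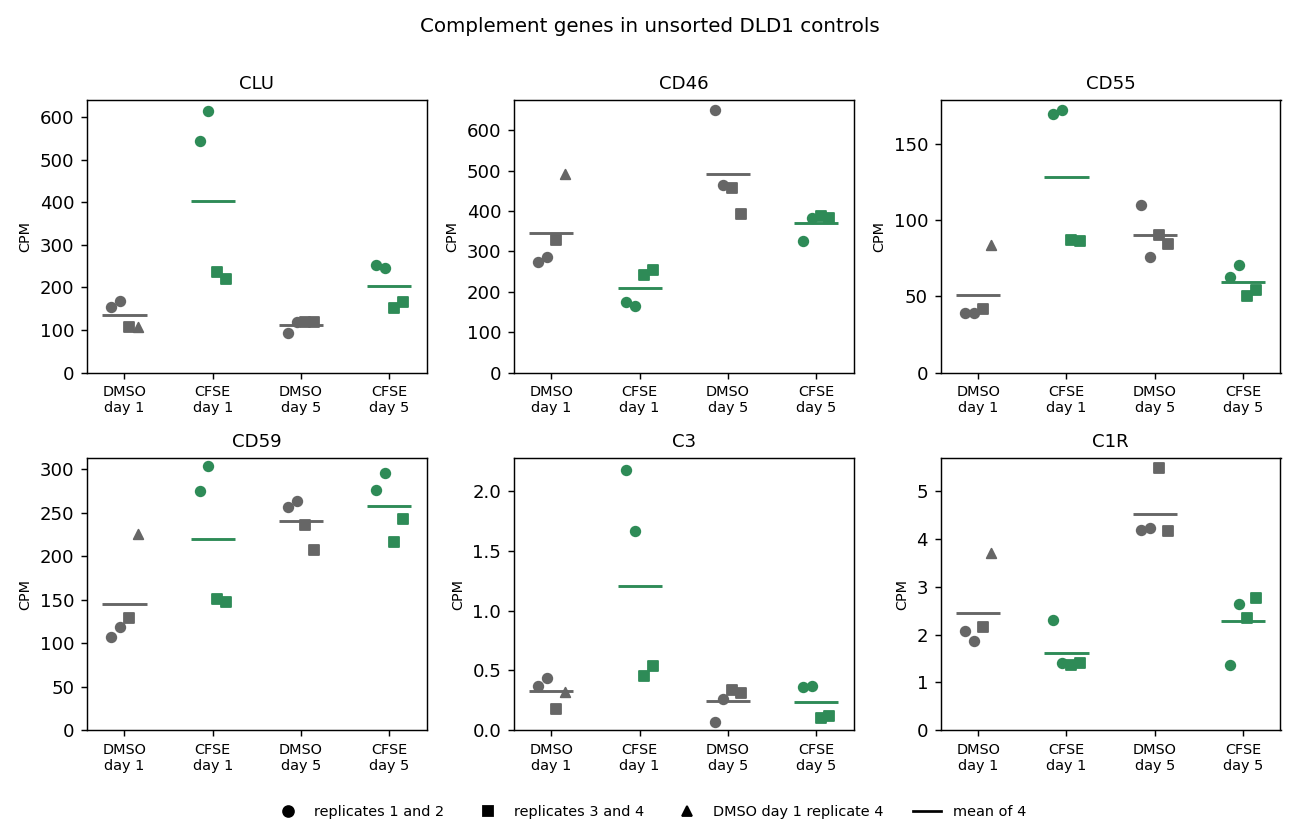
CPM (vertical axes) of 6 members in the unsorted DLD1 controls by dye and day, with each point 1 sample, circles for replicates 1 and 2, squares for replicates 3 and 4, a triangle for the library labelled DMSO day 1 replicate 4, and bars at the mean of 4. CLU is highest in CFSE day 1 at 220 to 613 CPM, CD55 is above DMSO with the dye on day 1 and below it on day 5, and the triangle lies within the range of the DMSO day 5 samples for CD46, CD55 and CD59.

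Of 46 other complement genes, 15 had enough reads to be tested across the lines, and 5 were higher in LRCs and none was lower, beside the 12.2% and 22.9% given above. These were C3AR1, a receptor for the fragment C3a, at a log2 fold change of 0.94 ± 0.22, C7, a part of the pore, at 0.70 ± 0.24, C1S, the protease that C1R activates, at 0.58 ± 0.19, ITGAX, a chain of an integrin that binds C3 fragments, at 0.52 ± 0.19, and C4BPB, a chain of the C4b-binding inhibitor, at 0.48 ± 0.12. Their edgeR adjusted p-values were between 0.00136 for C3AR1 and 0.0402 for ITGAX. Nearly all reads of C3AR1 were from RKO, with 1258 in LRCs and 653 in non-LRCs, and ITGAX in RKO measured 152 ± 26.7 CPM against 80.0 ± 4.79 CPM (SD, n = 4). C1S had between 47 and 96 reads in the 4 LRC samples of a line and between 19 and 139 in the non-LRC samples, with SW48 the only line whose mean was higher in non-LRCs. C7 had 148 against 108 reads in SW948, 62 against 27 in DLD1 and 23 against 11 in RKO. In the other lines and in the unsorted DLD1 controls it had at most 3 reads per group. The cause of the difference between these controls and sorted DLD1 was not tested. C4BPB was higher in LRCs at 12.9 ± 1.13 against 9.81 ± 0.674 CPM in DLD1 and at 11.5 ± 1.64 against 8.84 ± 0.910 CPM in HCT15. C4BPB was also higher in the LRC means of SW48 and SW948. It was lower in HT55, at 1.83 ± 0.503 against 2.11 ± 0.248 CPM, and had 3 against 5 reads in RKO. Its effect differed between lines (adjusted p = 0.0174), as did those of C1RL (adjusted p = 0.0194) and SUSD4 (adjusted p = 0.00684). The median log2 fold change of the 15 genes was 0.29, and 11 of them had a positive value.

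In the DLD1 controls, 14 of the 46 genes were tested between day 5 and day 1. ITGAM, MASP2 and C8G reached the count minimum only in day 1 samples, which favors lower values on day 5, and their values are a description. Of the other 11 genes 9 were called, beside 49.5% of all genes. Higher on day 5 were SUSD4 at a log2 difference of 1.13 ± 0.20, C5 at 0.72 ± 0.17, CFD at 0.65 ± 0.11, C1RL at 0.58 ± 0.19 and CR2 at 0.37 ± 0.14, and without the library labelled DMSO day 1 replicate 4 the call of CR2 was lost (edgeR adjusted p = 0.0662). Lower on day 5 were C1S at -2.71 ± 0.39, CFP at -1.67 ± 0.29, C5AR1 at -1.55 ± 0.27 and C4BPB at -0.87 ± 0.16. The fitted difference was -4.91 ± 0.88 for ITGAM, -3.02 ± 0.55 for MASP2 and -2.47 ± 0.48 for C8G, from few reads: ITGAM had 333 and 52 reads on day 1 and 5 and 3 reads on day 5 in the CFSE and DMSO groups, and MASP2 had 74 and 32 reads and then 9 and 3. C1S, the partner of C1R, fell from 405 and 255 reads to 48 and 47, while C1R itself was higher on day 5. With CFSE against DMSO, 5 of the 14 were called, beside 28.5% of all genes. C4BPB was higher, and C1RL, C5, CFD and SUSD4 were lower. ITGAM and MASP2, not among them, reached the count minimum only through CFSE samples. For C5 the direction turned between the days, from 3.70 ± 1.81 CPM with CFSE against 9.91 ± 1.31 without it on day 1 to 11.6 ± 1.35 against 8.91 ± 0.801 CPM on day 5 (SD, n = 4). Its interaction of dye and day was 1.76 ± 0.34 (edgeR adjusted p = 0.0285), and without the library labelled DMSO day 1 replicate 4 it was 1.77 ± 0.37 (adjusted p = 0.0109) and the call averaged over both days was lost (adjusted p = 0.0549).

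The genes whose pattern over the sorted samples was most like that of a member were ranked by Pearson's r over the 24 same-numbered LRC minus non-LRC differences in log2 CPM, among 11714 genes. The pairs of a line share that line, so the values are a description. For CLU they were TFIP11 (r = 0.86), ABHD4 (0.77) and TERF2IP (0.77), for CD55 PRSS22 (0.85), C1orf116 (0.83) and ZFAND5 (0.80), and for CD59 APMAP (0.77), HEXA (0.74) and CCDC127 (0.72). For CD46 they were INSIG2 (0.84), UBXN4 (0.83) and STT3B (0.82), and for C1R WDPCP (0.77), APOL1 (0.76) and BBS12 (0.69). For the sparse C3 they were MORN4 (0.68), OPRL1 (0.67) and IRS2 (0.66), and for CFB BAIAP2L1 (0.69), WIPI1 (0.66) and CD36 (0.65). Between the members themselves the highest r was 0.54, for CLU with CD59, followed by 0.43 for CLU with CD55, whereas CD55 with CD59 gave 0.16 and CLU with CD46 gave -0.09.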

How the data were processed

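RNA sequencing was measured in 64 samples. Per gene and sample, the authors deposited read counts as whole numbers, not normalized, for 54127 Ensembl genes. According to the submitters' processing notes and the study's methods, TruSeq libraries were read as 50-bp single ends on hg19, and TopHat, HTSeq and DESeq were named without versions. Whether counting used strand is not given in the sources used here. Symbols matched 39260 genes and GRCh37 positions, from GENCODE, 47098. Groups and replicate numbers came from the sample labels. No 2 samples held identical counts, and replicates differed by more than sampling noise.

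Genes that reached 10 counts in 4 or more of the samples compared were tested with edgeR 4.0.16 in R 4.3.3 (TMM, quasi-likelihood test, two-sided, Benjamini-Hochberg adjustment over all genes tested, threshold 0.05), with cell line as a covariate across lines and with group means of dye and day in the controls. The scripts were tested on simulated data. CPM values used TMM factors over all 64 samples, and log2 CPM a prior count of 2. RPKM divided CPM by the union of exons. Same-numbered samples deviated together in HT55, SW48, DLD1 and HCT15 (every r over 0.1, mean r 0.237, 0.259, 0.224 and 0.354), a hint from the data that the numbers pair them, and not in SW948, RKO or the controls. The alternatives were DESeq2 1.42.0, other normalizations and filters, the replicate block and leaving out replicates. The named genes were the 9 members, the other complement genes called across lines or in the day contrast, and the 3 genes most like each member. C1RL and SUSD4 are also named for their line difference. Members, lists and tests were chosen with earlier results of these data known. Floors of 3 counts cover counting error only.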

Additional observations from a re-analysis of the deposited data

Results flagged for a closer look

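Of 81 groups of 4 samples examined for the 9 genes, 10 held a sample whose gap to the nearest other sample was above the critical share (Dixon) of the range of the group, and chance gives about 1 in 20. CLU in SW948 LRC replicate 4 (19.96 CPM against 60.7 to 74.3 in the others) had a gap of 0.846 of the range, and CLU in DMSO day 5 replicate 1 (92.8 CPM against 118 to 120) one of 0.933. CD55 in HT55 LRC replicate 2 (456 CPM against 606 to 625) had 0.902, CD55 in SW48 LRC replicate 2 (1783 CPM against 3567 to 3877) had 0.893, and CD55 in the library labelled DMSO day 1 replicate 4 (83.2 CPM against 38.8 to 41.3) had 0.918. CD59 in SW48 non-LRC replicate 2 (174 CPM against 114 to 121) had 0.847, and CD46 in CFSE day 5 replicate 1 (325 CPM against 382 to 388) had 0.908. C1R had 0.931 in CFSE day 1 replicate 1 (2.30 CPM against 1.36 to 1.41), 0.936 in DMSO day 5 replicate 3 (5.49 CPM against 4.16 to 4.24) and 0.903 in RKO non-LRC replicate 2 (1.04 CPM against 1.52 to 1.58).

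The effect of the dye on CD55 in the DLD1 controls differed between the days, with an interaction of -1.98 ± 0.38 on the log2 scale (edgeR adjusted p = 0.0265).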

How the results depend on the processing

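Across the 6 lines CLU, CD55, CD59 and, tested only through its LRC samples unless the count minimum was dropped, C3 were called under every alternative that tested them, except that CD55 and CD59 lay under an added minimum size of 0.5 (log2), which left 2 members, and C1R was called with the replicate block (0.28, adjusted p = 0.0471). Leaving out replicates gave 0 to 2 called members in HT55, 0 to 3 in SW948, 0 to 2 in SW48, 1 to 3 in DLD1 and 0 in HCT15, and 1 to 4 for the day, 2 to 5 for the dye and 0 to 2 for their interaction in the controls. In SW948, DESeq2, no filter and the replicate block each gave 2 called members and 1 fit of all 48 samples gave 1. In SW48, DESeq2, no filter and 1 fit of all 48 samples each gave 1 and the block 2. In DLD1 1 fit of all 48 samples gave 1 (C3), and in HCT15 it gave 0 and the block 4. The block called 3.66% of all genes in SW948, 9.69% in SW48 and 21.3% in HCT15. Where no share of all genes is given here or above, these counts, those from leaving out replicates included, describe the members alone. With the block, 1 member differed between lines (CD55, adjusted p = 0.00299) where the plain fit had 0, 8 other complement genes differed where it had 3, and C7 lost its call across lines (adjusted p = 0.0581). The block changed no member's call in HT55, RKO, DLD1 or the controls. Values that changed sign were small: leaving out 1 replicate, CD46 ran from -0.0016 to 0.039 across lines, from -0.097 to 0.066 in HT55 and from -0.026 to 0.061 in DLD1, and C1R from -0.30 to 0.036 in SW48. The cause was not tested. Of the other values of single members, 527 kept direction and call, 29 gained a call and 31 lost one. Depth limits C3, CFB, CFI and SERPING1, which had few reads per sample.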
